A study of Mus musculus with 8 samples.

Results

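The 226 genes described here are the abundant long non-coding RNA genes of cultured mouse oocytes, out of 55385 genes in the count table. They are genes of chromosomes 1 to 19 that GENCODE M21 annotates as lincRNA or antisense and that averaged at least 5 CPM (the count of reads of a gene scaled to the library's total) over 8 libraries. Of 7895 genes with those biotypes on these chromosomes, 228 reached that mean, and Meg3 and B930036N10Rik were then left out by name with 6 further genes that lay below it. Measured level thus chose the genes, so their levels are given as a description with no test. The last genes to qualify were Gm38025 at 5.07, Gm20617 at 5.02 and A930031H19Rik at 5.00 CPM, and the first to miss were Gm48453 at 4.89, Mkln1os at 4.87 and Gm32834 at 4.84 CPM. All 226 passed the filter on low counts of the test, which 14929 genes passed.

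The libraries were pools of oocytes in 4 groups of 2, which are MII oocytes of a sex-converted XX line, MII oocytes of a native XX line, GV oocytes of the sex-converted XX line and GV oocytes of the native XX line. GV oocytes are grown oocytes with an intact nucleus in prophase of the first meiotic division, and MII oocytes are eggs arrested at metaphase of the second division. All were grown in culture from embryonic stem cells of a C57BL/6 x 129/SvJ background that carried the Blimp1-mVenus and Stella-ECFP reporters. Germ cells induced from them were aggregated with somatic cells of embryonic day 12.5 female gonads, with 5000 germ cells and 75000 somatic cells in each aggregate. After 21 days of differentiation culture, GV oocytes were taken at day 11 of growth culture and MII oocytes after 16 h of further maturation, picked by the first polar body. Oocytes positive for Stella-ECFP were pooled, 35 to 58 at MII and 31 to 158 at GV. Each line is 1 stem cell line, so the line and sex conversion cannot be told apart. Cumulus cells were removed with hyaluronidase at MII and with an enzyme mix and a glass capillary at GV, so the stage and the handling cannot be told apart either.

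Long non-coding RNAs are transcripts without a long reading frame that are spliced and polyadenylated like mRNAs, and lincRNAs are those between genes, while antisense RNAs lie across a gene of the other strand. Mouse oocytes are known for many such transcripts that start in retrotransposons, chiefly long terminal repeats of the MT families. Growing oocytes store RNA and then stop transcription, so that during maturation RNA is changed by decay and by shortening or lengthening of poly(A) tails. Lengthening is directed in known maternal mRNAs by a U-rich cytoplasmic polyadenylation element close to the poly(A) signal.

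Library totals were 11894026 to 14690428 reads at MII and 10306471 to 14999003 reads at GV. Levels below are CPM scaled by trimmed means of M-values (TMM), unless said to be per library total. These factors were 0.714 to 0.733 at MII and 1.33 to 1.43 at GV, so a change in maturation is relative to the bulk of other polyadenylated RNAs and not an amount per oocyte. In libraries of polyadenylated RNA made from pools, fewer molecules and shorter poly(A) tails cannot be told apart, nor can fewer cells and less RNA per cell. At GV, log CPM over all genes correlated at 0.98 between sex-converted replicate 1 and native replicate 2 and between sex-converted replicate 2 and native replicate 1, and at 0.97 between libraries of the same line. The other pairs across the lines had 0.961 for the libraries numbered 1 and 0.972 for those numbered 2. Only in the first 2 pairs were GV libraries thus clearly more alike across the line labels than within them. Whether those labels are right was not tested, and each comparison of the lines that uses GV libraries rests on them. The 14 oocyte markers summed to 18560 to 22190 CPM at MII and 15280 to 17770 CPM at GV. The 16 granulosa and cumulus markers summed to 119 to 163 CPM at MII and 56.5 to 79.3 CPM at GV, with 4 members higher at MII, 2 lower and Amh and Foxl2 below 1 CPM in every library. The 4 were Cyp19a1, at 47.9 to 63.4 CPM at MII and 12.4 to 19.4 CPM at GV, Kitl, Has2 and Hsd3b1. The 10 stroma and theca markers summed to 15.6 to 87.9 CPM at MII and 1.34 to 1.48 CPM at GV, with 4 members higher at MII and 0 lower, and native MII replicate 1 was highest. The 4 were Spp1, at 6.13 to 34.2 CPM at MII and 0 at GV, Thbs1, at 2.19 to 39.9 CPM at MII and 0 to 0.584 CPM at GV, Vim and Acta2, while Col1a1 and Col3a1 were below 1 CPM. The 6 endothelium and blood markers summed to 192 to 277 CPM at MII and 60.1 to 89.4 CPM at GV, nearly all of it Pecam1. The part of these cells in the changes given below was not tested.

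Most of the genes are known only by a gene model number, a clone or a contig, as 199 of 226 names are of that kind. Their levels were uneven. By library total 11 genes averaged 100 CPM or more, 15 were at 50 to 100, 107 at 10 to 50 and 93 at 5 to 10 CPM, and the median was 12.3 CPM. C86187, Gm1965 and Gm1070 together held 48.95% of the summed mean CPM, and the top 10 genes held 62.3%. As a share of all reads, the 226 genes took 1.23 to 1.25% of each MII library and 0.872 to 1.05% of each GV library. The 3 leading genes made up 64.4 to 66.9% of those reads at MII and 25.4 to 28.6% at GV. Per kilobase of exon the same 3 genes led, with means over both stages of 1231 CPM per kb for C86187, 749 for Gm1965 and 609 for Gm1070, followed by Gm839 at 207 and D6Ertd474e at 153 CPM per kb.

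The genes had a median exonic length of 1621 bases, against 957 bases over all 7895 lincRNA and antisense genes, which include the 226. Over the 8596 protein-coding genes at 5 CPM or more it was 4852.5 bases. The level limit was not divided by length, so it favours longer genes, and the lengths are a description. Only 4 of the 226 (1.77%) had 1 exon, against 7.66% of all lincRNA and antisense genes. By position, 57 (25.2%) lay across a protein-coding gene of the other strand, against 37.4% of all such genes, 5 started within 1 kb of one in the opposite direction, 2 overlapped one on their own strand and 162 (71.7%) were intergenic, against 57.9%. Chromosome 6 held 20 of the genes and 40.9% of their summed mean CPM. Gm5165 and Gm6712 are near copies, 95.4% identical over 520 bases, so reads may be shared or lost between them. Gm1965, Gm839 and 4933427D06Rik lie in one stretch of it, chr6:88950683-89216237 (GRCm38).

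The promoters of the 3 leading genes are shown because these genes carry so much of the signal. Each holds 250 bases before and 50 bases after the start in RefSeq's annotation of GRCm38.p6, on the strand of the gene, and capitals mark a TATA box (TATAAA).
C86187, chr7:46975862-46976161, minus strand: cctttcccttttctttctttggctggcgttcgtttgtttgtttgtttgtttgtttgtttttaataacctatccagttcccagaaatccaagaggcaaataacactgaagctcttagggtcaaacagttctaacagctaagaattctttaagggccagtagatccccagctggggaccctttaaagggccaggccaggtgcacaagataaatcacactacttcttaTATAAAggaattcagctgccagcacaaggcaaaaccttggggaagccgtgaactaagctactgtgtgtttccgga
Gm1965, chr6:89140744-89141043, plus strand: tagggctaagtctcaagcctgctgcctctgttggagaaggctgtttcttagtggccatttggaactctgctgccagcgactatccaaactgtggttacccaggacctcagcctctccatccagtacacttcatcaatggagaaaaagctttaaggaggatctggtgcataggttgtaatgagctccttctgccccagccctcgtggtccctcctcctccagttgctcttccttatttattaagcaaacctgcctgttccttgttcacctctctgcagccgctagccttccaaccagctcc
Gm1070, chr6:71293515-71293814, plus strand: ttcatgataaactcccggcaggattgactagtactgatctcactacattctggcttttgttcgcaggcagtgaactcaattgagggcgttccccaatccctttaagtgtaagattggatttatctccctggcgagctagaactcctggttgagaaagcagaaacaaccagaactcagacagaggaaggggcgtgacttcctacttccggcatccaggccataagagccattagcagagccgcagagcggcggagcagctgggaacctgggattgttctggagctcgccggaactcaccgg
In C86187 the match starts 25 bases before the start site, and the other two promoters hold none. The gene Arhgap20os has one 30 bases before its start. RefSeq promoters were found for 108 of the 226 genes. Of their 136 promoters, 10.3% held TATAAA on the strand of the gene, against 8.32% of all 32851 promoters in the table, and 16.9% against 13.6% held it on either strand. The median CpG count was 5 in the promoters of these genes and 7 in all promoters, and the median GC content was 49.7% and 52.7%.

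The starts of some of these transcripts resembled each other. When the first 300 bases of the longest GENCODE transcript of each gene were aligned with those of the others, 36 of 226 genes matched at least 1 other over 100 bases or more at 75% identity or more. With the last 300 bases only 10 did. No other set of genes was compared in this way. The 36 genes fell into 9 groups, and the largest held 16 genes on 9 chromosomes, with identities of 75.7 to 95.5% over 100 to 124 bases. A run of 18 bases occurred unchanged in 8 of the 16, and was picked as the longest run shared by at least 8 of them. It was found in the first 300 bases of 3.54% of the 226 genes, none outside that group, and of 0.367% of all 7895 lincRNA and antisense genes. The run was picked from these starts and the 7895 genes include the 226, so the shares are a description and not a test. The run is shown in capitals in 7 of these genes with up to 20 bases on each side, to let the starts be compared.
Gm29129: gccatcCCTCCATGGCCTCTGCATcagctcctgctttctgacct
Gm3143: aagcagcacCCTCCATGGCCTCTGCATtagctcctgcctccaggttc
Gm33819: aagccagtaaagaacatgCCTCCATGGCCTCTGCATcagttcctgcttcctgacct
Gm35191: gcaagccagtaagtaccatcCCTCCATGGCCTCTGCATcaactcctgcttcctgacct
Gm38025: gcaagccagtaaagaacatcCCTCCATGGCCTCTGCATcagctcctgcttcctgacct
Gm42848: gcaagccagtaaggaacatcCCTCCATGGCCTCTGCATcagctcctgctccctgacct
Gm48704: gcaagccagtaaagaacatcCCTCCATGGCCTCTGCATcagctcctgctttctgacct
Genes of this group did not move together in maturation. MII over GV, 5 rose, 8 fell and 3 were called neither way, with log2 fold changes of -7.73 to 1.83 and a median of -0.68. No repeat annotation was used here, so whether the shared starts come from a retrotransposon was not tested.

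Most of these genes differed between MII and GV, in both directions and at shares near those of all genes tested. Averaged over the lines, 78 of the 226 (34.5%) were higher at MII than at GV and 103 (45.6%) were lower in edgeR's quasi-likelihood test at an adjusted p under 0.05, against 33.6% of all 14929 genes higher and 42.4% lower. The median log2 fold change was -0.33 over the 226 genes and -0.34 over all genes tested, so the medians were close with this filter on low counts. With a mean of 50 reads as the filter they were -0.42 and -0.16. The 8596 protein-coding genes at 5 CPM or more had a median of -0.04, with 42.0% higher and 43.4% lower. At least 2-fold rises were called in 62 of the 226 and at least 2-fold falls in 87, and 4-fold changes in 16 and 60. The same counts over all genes tested are not given here, so these are a description. Falls of 4-fold, called or not, began near the same percentile. At the 26th percentile the log2 fold change was -2.06 in the 226 genes and -2.08 over all genes tested, and at the 88th it was 1.75 and 2.02. At the 25th percentile the log2 fold change was -2.10, against -2.15 over all genes tested. At the 90th percentile it was 1.85, against 2.16 over all genes tested. All 4 MII libraries lay above all 4 GV libraries in 75 genes (32.2% of all genes) and below them in 99 (40.2% of all genes), and the stages overlapped in 52.

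**Figure D1:**
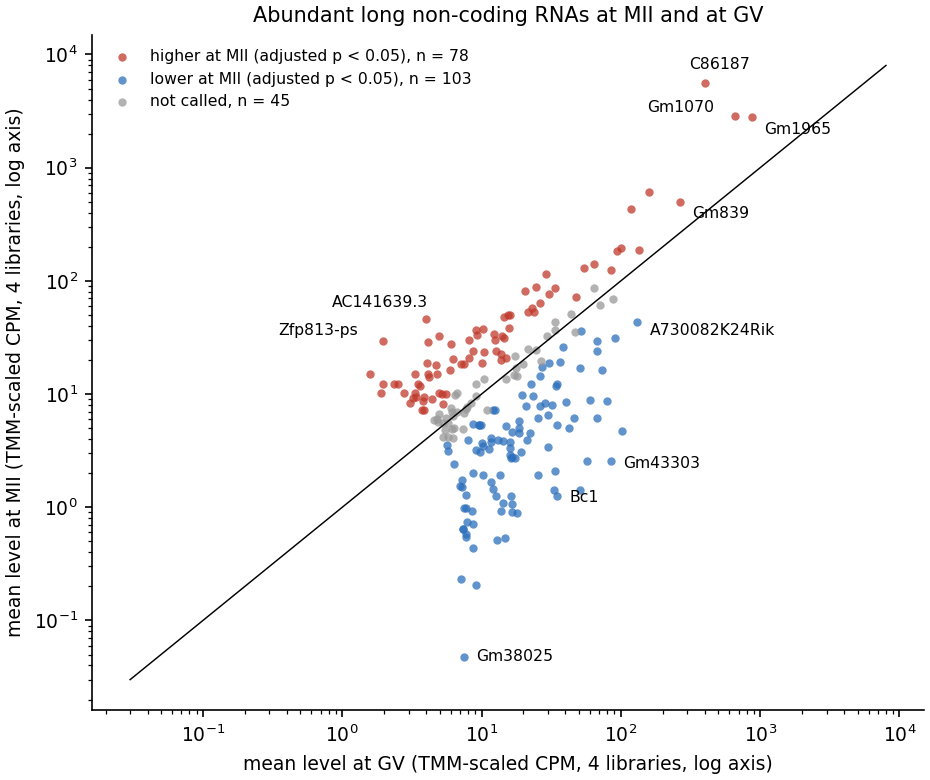
Mean level of each of the 226 genes at MII (vertical axis) against GV (horizontal axis), in TMM-scaled CPM over 4 libraries each, both axes logarithmic, with the line of equal levels. The 78 genes called higher at MII include the most abundant ones, and the 103 called lower reach down to Gm38025 at 0.0477 CPM at MII and 7.43 CPM at GV.

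The split depends on the scaling. Scaled by library totals alone, 42 of the genes were higher at MII and 141 lower, and the median over all genes tested moved by that step to -1.26. Of the 78 genes that rose, 67 kept the sign under that scaling, as did all 103 that fell. How a gene qualified also bears on its direction. By library total, 119 genes averaged 5 CPM or more in each stage, and 64 of these rose and 26 fell. Another 93 reached it at GV but not at MII, of which 77 fell and 0 rose, and the 14 that reached it at MII but not at GV all rose. Among the 25 most abundant genes 14 rose and 8 fell, and among those ranked below 100 the counts were 37 and 61. By biotype, 67 of 173 lincRNA genes rose and 70 fell, and 11 of 53 antisense genes rose and 33 fell. Over all 14929 genes tested 33.6% rose and 42.4% fell. Those genes were not split by rank or biotype, so these counts are a description.

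**Figure D2:**
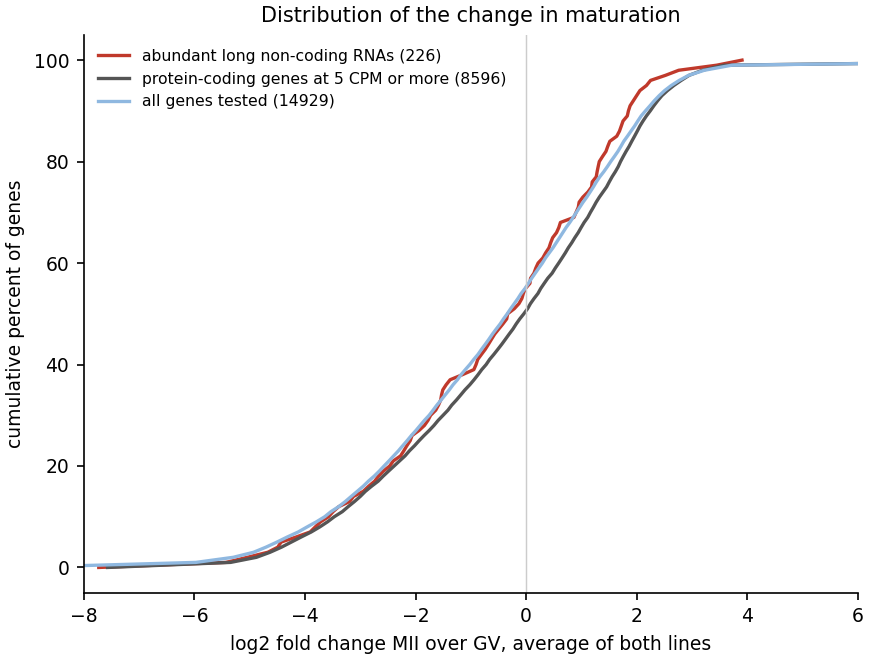
Cumulative percent of genes (vertical axis) by log2 fold change of MII over GV (horizontal axis, drawn between -8 and 6). The 226 genes and all 14929 genes tested have medians of -0.33 and -0.34, and their curves part among the rises, with 90th percentiles of 1.85 and 2.16. Protein-coding genes at 5 CPM or more have a median of -0.04.

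The most abundant RNAs mostly rose. C86187 (ENSMUSG00000110001.1, chr7:46967711-46975911) is a lincRNA of 4 exons and 2415 bases with no assigned function. It stood at 5293 and 5455 CPM in sex-converted MII and 5615 and 5810 CPM in native MII oocytes, against 368 and 454 CPM in sex-converted GV and 488 and 305 CPM in native GV oocytes. Every MII library was far above every GV library. The means were 5543 ± 221 CPM at MII and 404 ± 82.9 CPM at GV (SD, n = 4 each), a log2 fold change of 3.78 (SE 0.16, adjusted p = 1.27e-08, edgeR).

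Gm1965 (chr6:89140994-89147388) and Gm1070 (chr6:71293765-71302880) followed at about equal levels. Gm1965 had 2766 and 2714 CPM in sex-converted MII and 3033 and 2665 CPM in native MII oocytes, against 649 and 1101 CPM in sex-converted GV and 1086 and 664 CPM in native GV oocytes. Gm1070 had 2917 and 2638 CPM in sex-converted MII and 2880 and 2929 CPM in native MII oocytes, against 665 and 631 CPM in sex-converted GV and 659 and 674 CPM in native GV oocytes. The stages did not overlap in either gene, and the GV libraries were close to each other for Gm1070 but spread for Gm1965. Their log2 fold changes were 1.67 (SE 0.19, adjusted p = 8.96e-06) for Gm1965 and 2.11 (SE 0.10, adjusted p = 1.96e-08) for Gm1070. Gm1070 lies across Smyd1, a gene for a muscle histone methyltransferase, which had at most 0.438 CPM in any library.

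The next 3 genes are also on chromosome 6. D6Ertd474e stood at 608 ± 22.3 CPM at MII and 159 ± 14.9 CPM at GV, and 4933427D06Rik at 434 ± 93.0 CPM at MII and 119 ± 3.81 CPM at GV (SD, n = 4 each). Both rose, with log2 fold changes of 1.94 (SE 0.11, adjusted p = 6.14e-08) and 1.86 (SE 0.15, adjusted p = 7.64e-07). Gm839 had 472 and 571 CPM in sex-converted MII and 508 and 447 CPM in native MII oocytes, against 220 and 316 CPM in sex-converted GV and 317 and 207 CPM in native GV oocytes. It was higher in every MII library, with a log2 fold change of 0.91 (SE 0.17, adjusted p = 0.000489), which became -0.0046 when library totals alone were used.

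Of the other 6 among the 12 most abundant genes, 5 rose by smaller steps. The log2 fold changes were 1.14 for Gm10857 (SE 0.23, adjusted p = 0.000778), 0.97 for AA545190 (SE 0.19, adjusted p = 0.000701) and 0.96 for Gm4961 (SE 0.14, adjusted p = 7.96e-05). These 3 calls were lost under library totals alone, where the values were 0.22, 0.05 and 0.04. Gm17751 had 0.56 (SE 0.14, adjusted p = 0.00341) and Arhgap20os 0.48 (SE 0.15, adjusted p = 0.0145), and under library totals both turned to called falls of -0.36 and -0.44. The call of Arhgap20os was also lost without sex-converted GV replicate 1 (0.37, adjusted p = 0.0613), sex-converted MII replicate 2 (0.39, adjusted p = 0.0759) or native MII replicate 1 (0.44, adjusted p = 0.0516). A730082K24Rik was the 1 gene of the 12 that fell. It had 53.8 and 45.5 CPM in sex-converted MII and 32.8 and 40.3 CPM in native MII oocytes, against 98.0 and 152 CPM in sex-converted GV and 154 and 119 CPM in native GV oocytes. Its stages did not overlap, and it fell by 1.62 on the log2 scale (SE 0.18, adjusted p = 9.73e-06).

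**Figure D3:**
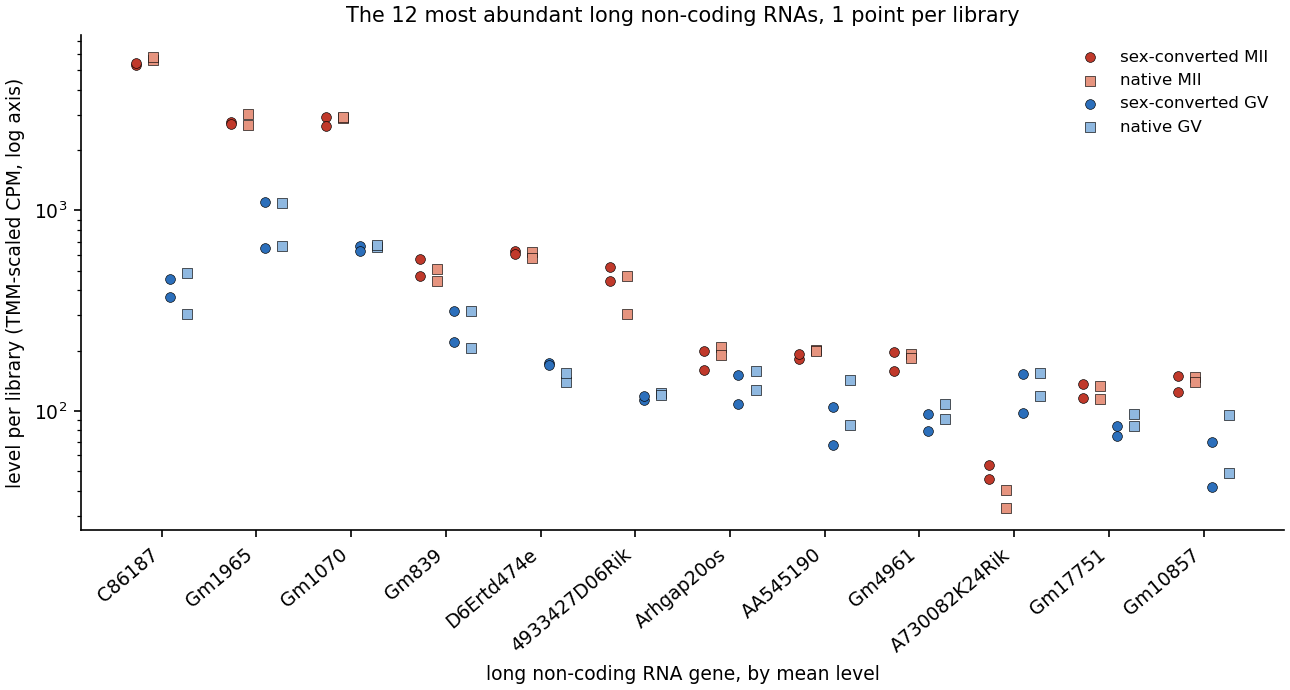
Level of the 12 most abundant genes in each library (TMM-scaled CPM, logarithmic axis), with sex-converted MII, native MII, sex-converted GV and native GV side by side and 1 point per library. The MII libraries lie above the GV libraries for all but A730082K24Rik, as scaled here, and under library totals alone Gm839, Gm10857, AA545190, Gm4961, Gm17751 and Arhgap20os were not called higher.

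All but 1 of the 8 largest rises were in RNAs scarce at GV, and the exception was C86187. Among genes at 10 CPM or more in the higher stage, Zfp813-ps led. It had 30.2 and 27.1 CPM in sex-converted MII and 30.6 and 29.6 CPM in native MII oocytes, against 2.32 and 1.75 CPM in sex-converted GV and 2.11 and 1.62 CPM in native GV oocytes. All MII libraries were far above all GV libraries, with a log2 fold change of 3.91 (SE 0.22, adjusted p = 4.97e-08). It is annotated as a lincRNA although its name marks a pseudogene of a zinc finger gene, so reads may be shared with related genes. C86187 came next, and AC141639.3 followed at 45.6 ± 5.62 CPM at MII and 3.97 ± 1.16 CPM at GV (SD, n = 4 each, log2 fold change 3.51, SE 0.23, adjusted p = 1.50e-07). Gm30043, Gm11381, 7420700N18Rik, Gm16845 and Gm20617 completed the 8 largest rises with log2 fold changes of 3.25, 2.81, 2.71, 2.64 and 2.48. Their MII means were 10.2 to 32.5 CPM and their GV means 1.58 to 4.98 CPM. None of these 8 genes had overlapping stages.

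The 8 largest falls, in genes at 10 CPM or more at GV, were in RNAs with means of 2.58 CPM or less at MII and 12.8 to 84.9 CPM at GV. Gm43303 was the most abundant of them. It had 1.64 and 2.28 CPM in sex-converted MII and 5.53 and 0.694 CPM in native MII oocytes, against 72.2 and 94.4 CPM in sex-converted GV and 88.8 and 84.3 CPM in native GV oocytes. The gene fell by 5.07 on the log2 scale (SE 0.41, adjusted p = 6.54e-07), and the log2 fold change was -6.17 without native MII replicate 1, its highest MII library. AC166350.2, which lies across the endocytic adaptor gene Ston1, had the lowest log2 fold change of the 8 at -5.26 (SE 0.28, adjusted p = 3.34e-08), with 1.41 ± 0.899 CPM at MII and 51.0 ± 5.51 CPM at GV (SD, n = 4 each).

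Bc1 was another of the 8. It is the gene of BC1, a short RNA with an internal A-rich stretch that RNA polymerase III makes and that is best known from rodent neurons, and it is 168 bases long with 1 exon at chr7:144914470-144914637. It had 0.875 and 0.855 CPM in sex-converted MII and 1.91 and 1.39 CPM in native MII oocytes, against 28.2 and 34.1 CPM in sex-converted GV and 42.3 and 35.5 CPM in native GV oocytes. The stages were far apart, with a log2 fold change of -4.85 (SE 0.24, adjusted p = 2.42e-08). Per kilobase its GV mean was 208 CPM per kb, close to that of Gm1070 at 229 CPM per kb. The other falls were those of Gm33819 (-5.01), Gm5083 (-4.61), AC126942.2 (-4.51), Gm20234 (-4.49) and Gm42817 (-4.49). Without sex-converted MII replicate 1 that of Gm33819 was -6.49, and without native MII replicate 1 that of Gm42817 was -5.39.

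Gm38025, one of the 3 genes just inside the level limit, fell further on the fitted scale but had almost no reads at MII. It had 0 and 0 reads in sex-converted MII and 2 and 0 in native MII oocytes, against 12 and 416 reads in sex-converted GV and 150 and 6 in native GV oocytes. The GV libraries thus differed greatly within each line, and the low and the high library of each line were those that correlated across the lines. The ratio of the summed CPM, GV over MII, was 163, with a 95% counting interval of 44.9 to 1348 that does not cover the spread between libraries.

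The ends of the RNAs that rose differed in sequence from those that fell. In the last 100 bases of the longest transcript, a poly(A) signal (AATAAA or ATTAAA) was found in 70.5% of the 78 that rose, 51.5% of the 103 that fell and 73.3% of the 45 called neither way. A cytoplasmic polyadenylation element (TTTTAT or TTTTAAT, transcript strand) was found in 34.6% of those that rose, 13.6% of those that fell and 20.0% of the rest, against 9.36% of all 7895 lincRNA and antisense genes. Both motifs were present in 28.2% of the genes that rose and 5.83% of those that fell. Protein-coding genes at 5 CPM or more showed a similar order, with the element in 29.5% of the 3607 that rose and 11.2% of the 3727 that fell. The windows of the genes that rose were also richer in A and T, with a median of 67.0% in those that rose and 59.0% in those that fell, and of 68.0% and 61.0% in protein-coding genes that rose and fell. The part of base composition in the motif shares was not tested, and a match is a description and not a shown site.

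Windows of up to 30 bases from the annotated ends of 3 abundant RNAs that rose are shown as examples, with capitals for the motifs.
Gm1070: TTTTATcttggatttcaccAATAAA
Gm839: attgcattctccAATAAAgtcttccctaca
Gm4961: agtgtttaaagtAATAAAgagaaattgaca
In Gm1070 the element stands 13 bases before the poly(A) signal, whereas the other two hold a poly(A) signal without an element in the window searched. Elements were also found in 4933427D06Rik, Gm17751 and Gm10857 among the 12 most abundant genes, and in A730082K24Rik, which fell. The end of C86187, also among the 12, is not reported here. Gm1965 and D6Ertd474e, which rose, held neither motif in the window searched. Arhgap20os and AA545190 held a poly(A) signal without an element. Of the genes named here that rose, Gm839, Gm4961, Gm10857, Gm17751, Arhgap20os and AA545190 were not called higher under library totals alone.

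**Figure D4:**
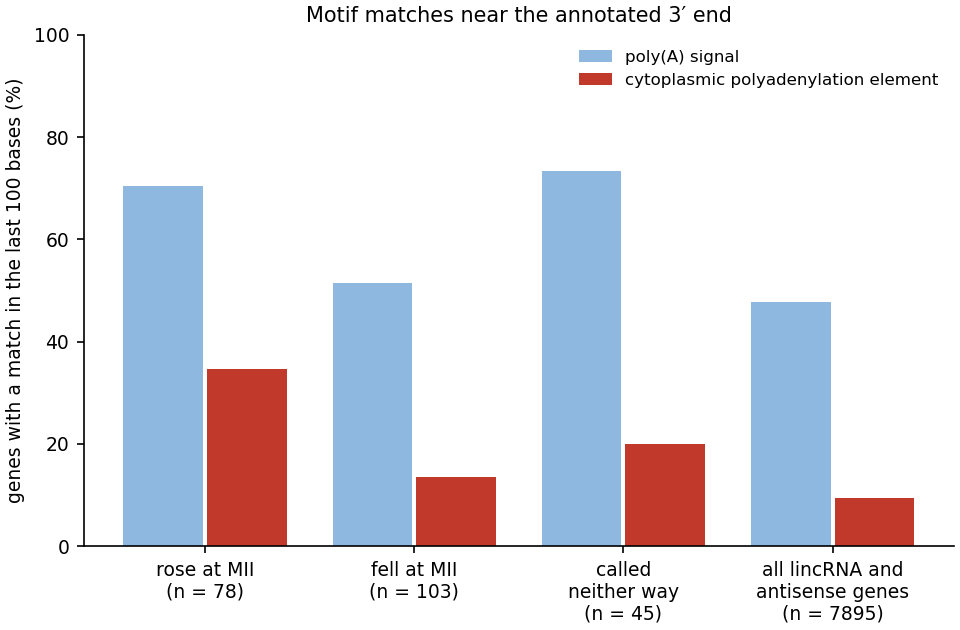
Percent of genes (vertical axis) with a poly(A) signal and with a cytoplasmic polyadenylation element in the last 100 bases of the annotated transcript, for the 78 genes that rose at MII, the 103 that fell, the 45 called neither way and all 7895 lincRNA and antisense genes. The element was found in 34.6, 13.6, 20.0 and 9.36% of these sets.

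Few of the long non-coding RNAs known from other cells belong to this set, in part because of their biotype. Gas5 and Mir22hg averaged 7.97 and 8.21 CPM per library total, above the limit, but are annotated as processed transcripts. Of 24 snoRNA host genes listed, 18 were in the table, 10 were tested, 3 rose and 4 fell, and only Snhg18 was in the set. Snhg18 had 8.86 and 6.46 CPM in sex-converted MII and 6.30 and 9.02 CPM in native MII oocytes, against 7.92 and 7.25 CPM in sex-converted GV and 9.29 and 7.02 CPM in native GV oocytes. Its stages overlapped, with a log2 fold change of -0.04 (SE 0.24, adjusted p = 0.879). Under library totals alone it was called lower, at -0.96 (adjusted p = 0.00383).

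Of 9 nuclear-body and chromatin RNAs listed, 5 were tested, 3 rose and 2 fell, and the 2 that fell, Tug1 and Pvt1, were the ones in the set. Tug1, a conserved RNA that male fertility requires in mice, had 8.97 and 11.1 CPM in sex-converted MII and 9.63 and 9.71 CPM in native MII oocytes, against 13.7 and 20.4 CPM in sex-converted GV and 25.98 and 18.2 CPM in native GV oocytes. The stages did not overlap, and the log2 fold change was -0.98 (SE 0.22, adjusted p = 0.00191). Pvt1, which lies beside the Myc gene, stood at 1.66 ± 0.664 CPM at MII and 11.6 ± 3.30 CPM at GV (SD, n = 4 each), and fell by 2.77 on the log2 scale (SE 0.31, adjusted p = 9.36e-06). Malat1 and Neat1, abundant nuclear RNAs of somatic cells, averaged 2.56 and 0.748 CPM per library total and so missed the limit. With 2900097C17Rik they were the 3 that rose. Malat1 stood at 6.36 CPM at MII and 0.365 CPM at GV, Neat1 at 2.07 and 0 CPM, and 2900097C17Rik at 2.60 and 1.09 CPM. Malat1 and Neat1 were highest in native MII replicate 1, and the part of other cells in their levels was not tested. Of 8 microRNA host genes listed, 2 were tested, 1 rose and 0 fell, and none was in the set.

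Genes that lie across or start beside a protein-coding gene did not follow it as a rule. Of 62 such genes, 53 had a tested partner, and in 32 pairs both were called. In 20 of the 32 the directions were the same, with 5 pairs higher at MII and 15 lower, and in 12 they were opposite. Over the 53 pairs, Pearson's r of the log2 fold changes was 0.12 and Spearman's correlation 0.19, a description across genes that share libraries. No source used here states the strand used in counting, so reads of a gene and its partner may not be told apart where they overlap. Protein-coding genes whose exons lie at least 95% under exons of the other strand were nearly empty, with 0 of 45 at 1 CPM or more, against 47.9% of 15355 genes with no such overlap. In 47 of the 226 genes some exon bases lie under exons of the other strand, 48.9% at most, and their levels may be understated.

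Arhgap20os and its partner Arhgap20 were both higher at MII as scaled here. Arhgap20 had 32.8 and 37.0 CPM in sex-converted MII and 46.8 and 37.9 CPM in native MII oocytes, against 10.8 and 15.4 CPM in sex-converted GV and 16.5 and 11.9 CPM in native GV oocytes. Its log2 fold change of 1.49 (SE 0.20, adjusted p = 3.55e-05) was larger than that of Arhgap20os. Gm16845 and Ecsit, a gene for a factor of mitochondrial complex I assembly, moved apart. Gm16845 had 12.03 and 15.5 CPM in sex-converted MII and 9.54 and 11.9 CPM in native MII oocytes, against 2.62 and 1.51 CPM in sex-converted GV and 1.28 and 2.46 CPM in native GV oocytes. Ecsit stood at 0.177 CPM at MII and 13.9 CPM at GV, a log2 fold change of -6.22 (SE 0.46, adjusted p = 3.27e-07), against 2.64 for Gm16845 (SE 0.31, adjusted p = 1.12e-05). The exons of this pair share 598 bases, and those of Arhgap20os and Arhgap20 share 162, so the values of both pairs are uncertain.

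Tug1, AC166350.2 and Gm42817 fell together with their partners. Morc2a, a chromatin ATPase gene across from Tug1, fell further than Tug1, with a log2 fold change of -3.70 (SE 0.33, adjusted p = 1.28e-06). Ston1 had -2.99 (SE 0.59, adjusted p = 0.000754), and Tmem132d, a transmembrane protein gene across from Gm42817, had -2.48 (SE 0.30, adjusted p = 1.44e-05). The exons of Tug1 and Morc2a share 483 bases and those of AC166350.2 and Ston1 share 181, so these values are uncertain too. Those of Gm42817 and Tmem132d share 0. Sema5a, a semaphorin gene that starts beside Snhg18, fell with -1.24 (SE 0.16, adjusted p = 2.42e-05), and Snhg18 was not called. Slfn2, across from Gm20234, was too scarce to be tested. Tbx3os1 and the transcription factor gene Tbx3 were chosen after their values were seen. Their exons share 115 bases, so their values are uncertain as well. Tbx3os1 stood at 6.14 ± 0.642 CPM at MII and 25.4 ± 4.06 CPM at GV (SD, n = 4 each) and fell by 2.05 on the log2 scale (SE 0.21, adjusted p = 4.63e-06), while Tbx3 stood at 59.8 CPM at MII and 6.48 CPM at GV and rose by 3.21 (SE 0.19, adjusted p = 7.98e-08).

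The change in maturation was much alike in each line, which share no library. In the sex-converted line 71 of the 226 genes were higher at MII and 93 lower, against 29.3% and 36.2% of all genes. In the native line 67 were higher and 98 lower, against 29.6% and 35.7% of all genes. Called the same way in each line were 63 higher and 89 lower, against 26.9% and 32% of all genes. Over the 226 genes the log2 fold changes of the sex-converted and the native line had a Pearson's r of 0.95 and a Spearman correlation of 0.97, and the sign was the same in 213. Over all 14929 genes Pearson's r was 0.91 and the Spearman correlation 0.95. Tug1 was called in the sex-converted line only narrowly, at -0.76 (adjusted p = 0.049976), and that call was lost in 11 of 16 alternatives, including RLE factors (-0.72, adjusted p = 0.0653), DESeq2 (-0.72, adjusted p = 0.0681) and the fit without sex-converted GV replicate 2 (-0.41, adjusted p = 0.374). In the native line it had -1.19 (adjusted p = 0.00628), and the call was lost without native GV replicate 1 (-0.89, adjusted p = 0.0582).

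**Figure D5:**
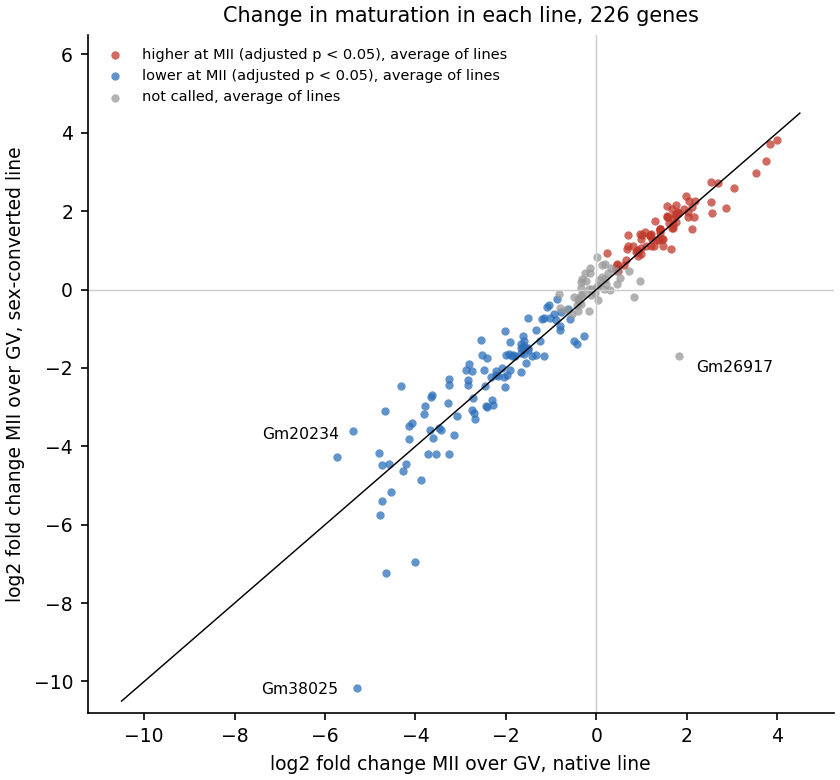
Log2 fold change of MII over GV in the sex-converted line (vertical axis) against the native line (horizontal axis) for the 226 genes, coloured by the call averaged over the lines, with the line of equal change. Most genes lie close to it, and Gm26917 at -1.69 in the sex-converted and 1.83 in the native line and Gm38025 lie far from it.

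Between the lines no gene of the set was called. At GV 0 of 226 differed, against 0.0134% of all genes, at MII 0, against 0.0134% of all genes, and in the test of whether the change in maturation differed between the lines 0, against 0% of all genes. At an unadjusted p under 0.05 edgeR gave 4, 12 and 3 of the 226, against 321, 549 and 329 of all 14929 genes. DESeq2 also called 0 of the 226, with 4, 11 and 3 at an unadjusted p under 0.05. The median log2 fold change of sex-converted over native was -0.07 at GV and 0.02 at MII, against -0.01 and -0.01 over all genes. Among the 4 most abundant genes the intervals were narrower for C86187 and Gm1070 than for Gm1965 and Gm839. That of C86187 was -0.53 to 0.35 at MII and -0.39 to 0.49 at GV, and that of Gm1070 was -0.36 to 0.23 at MII and -0.34 to 0.26 at GV (95% intervals of the log2 fold change). That of Gm1965 was -0.63 to 0.52 at MII and -0.57 to 0.57 at GV. That of Gm839 was -0.40 to 0.65 at MII and -0.49 to 0.56 at GV. With 2 libraries a group, an adjusted p above the threshold does not show that the lines are alike.

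The 3 genes below came nearest to a difference between the lines, as those of smallest unadjusted p. 7420700N18Rik, a lincRNA of chromosome 8, had 44.2 and 40.1 CPM in sex-converted MII and 23.3 and 22.5 CPM in native MII oocytes, and 6.49 and 6.33 CPM in sex-converted GV and 2.95 and 4.14 CPM in native GV oocytes. It was higher in both sex-converted libraries at each stage, with log2 fold changes of 0.88 at MII (95% interval 0.31 to 1.45) and 0.86 at GV (95% interval 0.25 to 1.47), and an adjusted p of 1.0 in edgeR's quasi-likelihood test at each. Gm20234 had 1.64 and 1.24 CPM in sex-converted MII and 0.191 and 0.578 CPM in native MII oocytes, a log2 fold change of 1.93 (95% interval 0.69 to 3.17) with an adjusted p of 1.0 in edgeR. Its levels at MII rest on few reads.

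Gm26917 was the most variable of the 3. It is a lincRNA of 1 exon at chr17:39843013-39846341, and RefSeq places Rn18s-rs5, a pseudogene of ribosomal RNA, 12 bases after its end. It had 2.41 and 3.14 CPM in sex-converted MII and 8.11 and 5.43 CPM in native MII oocytes, and 14.6 and 3.41 CPM in sex-converted GV and 0.723 and 3.16 CPM in native GV oocytes. Native was higher at MII in both libraries, and sex-converted was higher at GV in both. The change in maturation of the sex-converted line minus that of the native line was -3.52 (95% interval -5.80 to -1.24), with an adjusted p of 1.0 in edgeR. It was -2.11 without sex-converted GV replicate 1 and -4.88 without native GV replicate 2. The GV log2 fold change of sex-converted over native was 2.23 (SE 0.73, adjusted p = 1.0) and was 0.85 without sex-converted GV replicate 1, 1.51 without native GV replicate 1 and 3.61 without native GV replicate 2. With no filter on low counts, the GV difference (2.22, adjusted p = 0.00678) and the difference in change (-3.47, adjusted p = 0.00561) were both called.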

How the data were processed

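Polyadenylated RNA of oocyte pools was sequenced as 75-base single reads from stranded libraries made with 13 cycles of PCR, per the labels' protocols. The authors deposited raw counts of reads per gene, and per the submitters' processing notes Trimmomatic 0.38, HISAT2 2.1.0, featureCounts 2.0.0, DESeq2 1.30.1 and the mm10 build were used. Genes were matched to GENCODE M21 by identifier without version (55144 matched, 241 not, 0.0018 to 0.0052% of reads per library). Groups come from the titles, and duplicates are biological per the labels, so p-values measure the spread between 2 pools of a line.

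Counts were tested with edgeR 4.0.16 (R 4.3.3, limma 3.58.1) by the quasi-likelihood method with TMM factors, filterByExpr at a minimum count of 10 and all 8 libraries in 1 fit with a coefficient per group (4 residual degrees of freedom, common biological coefficient of variation 0.243). Tests were two-sided and Benjamini-Hochberg adjusted over 14929 genes, with calls at an adjusted p under 0.05. The procedure was also run on simulated counts with the same spread for every gene and as many rises as falls. Those counts had no shift of the bulk of genes between stages, so the run does not bear on the scaling. Standard errors were derived from the F statistic (fold change on the log2 scale divided by the root of F). DESeq2 1.42.0 was an alternative, as were RLE factors, library totals, other filters, a replicate block and leaving out each library. BLAST 2.17.0 compared transcripts.

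The genes, the lists of markers and known RNAs, and the motifs were chosen with earlier results of these data known. Named genes are the 12 most abundant, the 8 largest rises and 8 largest falls called in each line at 10 CPM or more in the higher stage, the 2 of smallest p in each line comparison, the genes of the lists of known RNAs that are in the set, partners on the other strand, and neighbours of the level limit. No sequence from chromosome 18 is shown. Counting intervals (95%) cover counting error only. A repeat annotation of starts was not analysed here.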

Additional observations from a re-analysis of the deposited data

How the results depend on the processing

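Counts of called genes in maturation were within 1.5 times under every alternative run, between 173 and 186 averaged over the lines, 143 and 173 in the sex-converted line and 143 and 171 in the native line. All 181 called genes kept their sign under every alternative but library totals, which turned 11. The median log2 fold change of -0.33 was -1.254 with library totals alone, where that of all genes was -1.261, and -0.422 with a mean of 50 reads as filter, where that of all genes was -0.159. With no filter the medians were -0.399 and -0.604. Leaving out each library in turn gave -0.335 to -0.198, and -0.469 to -0.307 for all genes. A limit of 10 CPM left 133 genes and a limit of 5 CPM in each stage 119. TMM scaling in the rule left 207, of which 204 were shared. With no filter on low counts, 1 gene was called between the lines at GV and 1 in the difference in change, Gm26917 each time, and 0 at MII. The cause was not tested. With library totals alone the log2 fold change turned to -0.0046 (average) and -0.039 (native line) for Gm839, -0.440 (average) for Arhgap20os, -0.082 (native line) for AA545190, -0.0023 (native line) for Gm4961, and -0.363 (average) and -0.270 (sex-converted line) for Gm17751, all relative to a median moved by that scaling.

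Replicate numbers mark no shared batch in the labels. Deviations of same-numbered libraries correlated at -0.44 between the lines at GV, 0.17 between them at MII and -0.06 to 0.08 between stages, so the numbers do not pair the samples. The replicate block gave 178 called genes averaged over the lines, 158 in the sex-converted line, 156 in the native line and 0 between lines. The crossed pairing, chosen after seeing the data, gave 186, 173, 171 and 0. Depth limits the values of genes with few reads at MII, such as Gm38025.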

Other observations

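The smaller groups of genes with alike starts were named after their values were seen, and no test bears on them. In 4 of the groups every gene was called one way as scaled here. Gm13465, Gm45277 and AC141429.2 on chromosomes 2, 8 and 18 rose, with log2 fold changes of MII over GV of 1.75 (SE 0.23, adjusted p = 3.58e-05), 0.54 (SE 0.23, adjusted p = 0.0475) and 2.25 (SE 0.28, adjusted p = 1.91e-05) in edgeR's test. Under library totals alone Gm45277 turned to -0.37 (adjusted p = 0.141), and the other two stayed called higher. Gm20356 and Gm49164 on chromosomes 3 and 14 rose by 2.00 and 1.89 on the log2 scale. Gm20234 and Gm28940 on chromosomes 11 and 1 fell by 4.49 and 3.50 on the log2 scale. Gm43303 and Gm49371 on chromosomes 5 and 12 fell by 5.07 and 2.93 on the log2 scale. In other groups the genes moved apart, as AU020206 stood at 64.1 CPM at MII and 26.3 CPM at GV while Gm15691 stood at 1.08 CPM at MII and 14.2 CPM at GV.

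Within the group of 16, the most abundant gene, Gm3143, averaged 31.5 CPM at MII and 90.2 CPM at GV, and Gm19299 averaged 87.6 CPM at MII and 24.6 CPM at GV. Their stages did not overlap, and their log2 fold changes were -1.52 (SE 0.17, adjusted p = 7.36e-06) and 1.83 (SE 0.18, adjusted p = 2.65e-06) in edgeR's test.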
